A study of Mus musculus with 6 samples.

Results

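The G1 control genes described here are the D-type cyclins Ccnd1, Ccnd2 and Ccnd3, their kinases Cdk4 and Cdk6, the CIP/KIP inhibitors Cdkn1a and Cdkn1b, and the INK4 genes Cdkn2a, Cdkn2c and Cdkn2d. The list was a named set of symbols, matched by Ensembl gene identifier, and all 10 were found among 55487 genes in the normalized count table. D-type cyclins are made in response to mitogens and switch on CDK4 and CDK6, which phosphorylate the retinoblastoma protein RB1, and phosphorylated RB1 releases the E2F factors that drive entry into S phase. The INK4 proteins bind CDK4 and CDK6 and keep them from their cyclins, whereas the CIP/KIP proteins act on cyclin-CDK complexes more widely. In blood cells CDK6 is also known as a transcriptional cofactor, and MLL-rearranged leukemias are known for their dependence on it.

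RNA was measured by poly(A)-selected sequencing in 6 libraries of GFP+ bone marrow cells from femora and tibiae of C57BL/6 mice, 3 from recipients given PBS and 3 from recipients given pIpC, a synthetic double-stranded RNA that induces interferon. In all 6, the donor cells were CD45.2(+), carried Mx1-Cre and Brd9fl/fl, and expressed MLL-AF9 (abbreviated MA9), a leukemia fusion gene delivered by a retrovirus that also encodes GFP. The recipients were CD45.1(+) CD45.2(-). PBS, or pIpC at 20 mg/kg, was given every other day for 3 doses from the day after transplant, and cells were prepared 10 days after injection. The Mx1 promoter that drives Cre responds to interferon, and the groups used here hold no pIpC-treated cells without Cre or with an intact Brd9, so pIpC itself and loss of Brd9 cannot be told apart. The study's methods describe the recipients as young, sublethally irradiated mice, and the injected leukemic cells as harvested from an earlier transplant. Recipient cells that lack GFP were meant to be removed by the gate. The submitters' notes give GFP+ cells, whereas the paper describes c-Kit+ bone marrow cells for this comparison. Whether c-Kit was part of the gate is not given in the sources used here. The comparison asks how the levels of the G1 control genes differ between GFP+ cells sampled after pIpC and after PBS. No label says whether each library came from a separate animal, so p-values measure the spread between these libraries only.

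The Brd9 count did not separate the labels in the direction of a deletion. It was 1927, 1946 and 1632 normalized counts in PBS replicates 1, 2 and 3, and 2036, 2263 and 2011 in the libraries labelled pIpC (log2 fold change 0.20, SE 0.13, limma adjusted p = 0.259). Only part of the gene is floxed and the count covers the whole gene, so the count cannot show whether the floxed exons were lost, and the treated samples are called libraries labelled pIpC below.

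Total counts recovered from the table were 19277439 to 22378154 reads per PBS library and 22348517 to 23586722 per library labelled pIpC. PBS replicate 3 stood apart from the other PBS libraries with transcript length. Its median log2 gap to them was 0.85 among the shortest 2996 genes (up to 1456 bases) and -0.68 among the longest 2996 (from 4900 bases). Markers of other cell types differed between the groups as well, and with bulk RNA fewer cells of a type and less RNA per cell cannot be told apart. Over all genes tested, 25.0% passed the test as higher and 20.4% as lower (limma adjusted p under 0.1). The 10 mature neutrophil markers all passed the test as higher, with a summed count of 15814 to 36613 in PBS libraries and 2016950 to 2087990 in those labelled pIpC. All 12 erythroid markers were higher (summed count 21.6 to 44.1 against 4907 to 7025), with Slc4a1 and Rhag at 0 in every PBS library. All 11 B cell markers were higher (139 to 307 against 1578 to 2982, Ms4a1 at 0 in PBS), as were the 5 of 10 T and NK cell markers that could be tested (186 to 319 against 3869 to 4518, Trac at 0 in PBS). Most of the T and NK sum was Nkg7 (4312, 3702 and 4056 in the libraries labelled pIpC). The untested Cd3e, Cd3g, Cd247, Cd8a and Trac had means of 7.95, 11.9, 6.99, 7.64 and 7.31 there. The 4 megakaryocyte markers tested of 5 were also higher (337 to 534 against 1277 to 1822, Ppbp at 0 in PBS). Gp1bb was not tested, at 0 in every PBS library and at 0, 0 and 1.93 in those labelled pIpC. Of 7 macrophage markers, 5 were higher (C1qa, C1qb, C1qc, Cd163 and Mertk) and 2 lower (Adgre1 and Vcam1). The summed count of the 7 was 10308 to 14581 in PBS and 5879 to 7384 in the libraries labelled pIpC, and Adgre1 and Vcam1 made up most of it. Of 5 stromal and endothelial markers, 3 were higher (1303 to 2324 against 1762 to 2014). Of 6 self-renewal markers of MLL-AF9 cells, Hoxa9, Hoxa10, Meis1 and Cd34 were lower, Flt3 was higher and Kit was not called (summed count 19983 to 23665 against 7051 to 7660). Mean counts went from 5130 in PBS to 256 for Hoxa9, from 1537 to 17.8 for Hoxa10 and from 3620 to 224 for Meis1. Those of Cd34, Flt3 and Kit were 5309, 202 and 6265 in PBS and 2008, 544 and 4362 in the libraries labelled pIpC. The part of these cells in the differences reported below was not tested.

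Of the 10 G1 control genes, 6 were higher in the libraries labelled pIpC, 3 were lower and 1, Cdk4, was not called (limma on log2(normalized count + 1), Benjamini-Hochberg adjusted p under 0.1). The background was high, since 45.3% of the 15020 genes tested were called, 25.0% as higher and 20.4% as lower. The PBS and pIpC values did not overlap for any of the 10 genes, a pattern that 56.8% of all genes tested also showed. The median log2 fold change was 1.16 over the 10 genes and 0.015 over all genes tested. The higher genes were the 3 D-type cyclins and the inhibitors Cdkn1b, Cdkn2c and Cdkn2d. The lower genes were Cdk6, Cdkn1a and Cdkn2a. All fold changes on the log2 scale here carry a pseudocount of 1, which understates the change of low genes.

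**Figure D1:**
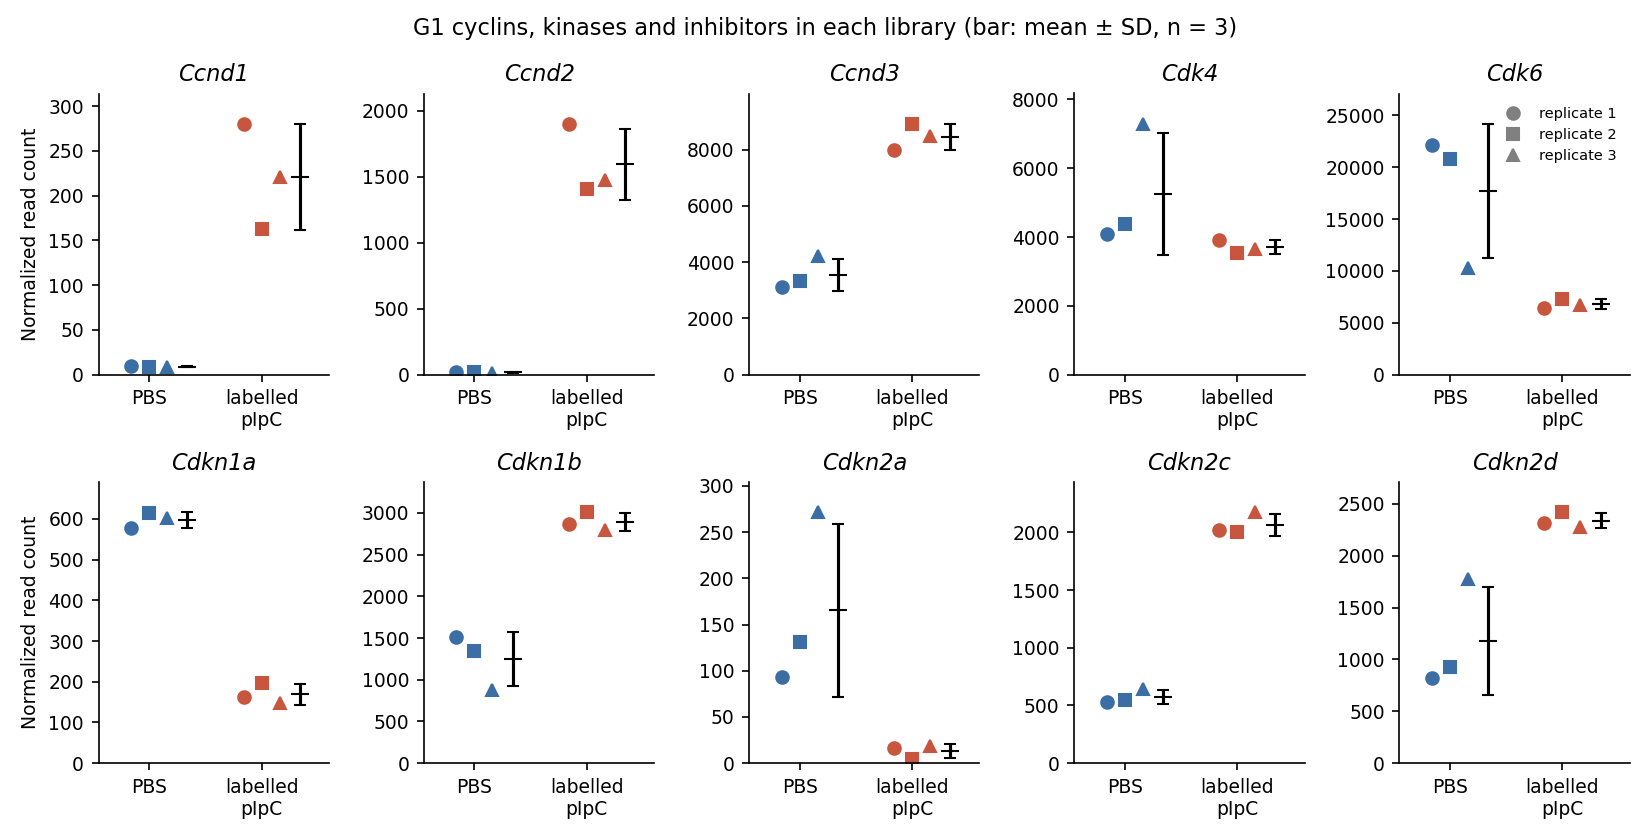
Normalized count of each of the 10 G1 control genes in each of the 6 libraries, with 1 point per library and a bar at the mean of each group of 3. The vertical axis is the normalized count on a linear scale, with its own range for each gene. Ccnd1 and Ccnd2 sit between 8.10 and 21.3 in PBS and between 162 and 1901 in the libraries labelled pIpC, while PBS replicate 3 lies apart from the other PBS libraries for Ccnd2, Cdk4, Cdk6, Cdkn1b, Cdkn2a and Cdkn2d.

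The D-type cyclins were all higher in the libraries labelled pIpC, and the steps were far larger for Ccnd1 and Ccnd2 than for Ccnd3. Ccnd2 (ENSMUSG00000000184, chr6:127125162-127152193, minus strand, GRCm38), the cyclin D of growth factor signalling in many blood cells, was measured at 19.0, 21.3 and 9.05 normalized counts in PBS replicates 1, 2 and 3, from 22, 21 and 8 reads. In the libraries labelled pIpC it was measured at 1901, 1407 and 1472. Every library labelled pIpC therefore lay far above every PBS library. The means were 16.4 ± 6.50 (SD, n = 3) and 1593 ± 269, a 96.9-fold difference, with a log2 fold change of 6.58 (SE 0.33, 95% interval 5.79 to 7.38, limma adjusted p = 3.35e-05).

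Ccnd1 (ENSMUSG00000070348, chr7:144929931-144939925, minus strand), a D-type cyclin that is scarce in most normal blood cells, was measured at 9.52, 8.10 and 9.05 normalized counts in PBS, from 11, 8 and 8 reads. The libraries labelled pIpC held 280, 162 and 220. The PBS libraries were close to each other, whereas those labelled pIpC spread over a wider range that never came near them. Means were 8.89 ± 0.724 and 221 ± 59.0 (SD, n = 3), 24.9-fold apart, and the log2 fold change was 4.46 (SE 0.28, 95% interval 3.78 to 5.13, limma adjusted p = 6.53e-05). Ccnd1 shares 1100 bases, 23.4% of its merged exons, with LTO1 on the other strand. The labels describe libraries without strand information, whereas the paper's methods describe stranded ones. If the labels hold, reads from this stretch cannot be told apart between the 2 genes. LTO1 itself was measured at 358 to 440 normalized counts in PBS and 370 to 419 in the libraries labelled pIpC.

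Ccnd3 (ENSMUSG00000034165, chr17:47505051-47599691, plus strand), a D-type cyclin that precursors of T cells and granulocytes are known to need, was already abundant in PBS. It was measured at 3110, 3330 and 4201 normalized counts in PBS and at 7978, 8909 and 8479 in the libraries labelled pIpC. The lowest library labelled pIpC was above the highest PBS library, which was replicate 3. The difference was 2.38-fold (3547 ± 577 against 8455 ± 466, SD, n = 3), with a log2 fold change of 1.26 (SE 0.15, 95% interval 0.91 to 1.62, limma adjusted p = 0.000837).

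The makeup of the D-type cyclin pool was then compared within each library, per kilobase of merged exons, so that library size had no part in it. Ccnd3 made up 98.9, 99.0 and 99.4% of the pool in PBS and 77.7, 84.7 and 82.6% in the libraries labelled pIpC. Ccnd2 accounted for 0.564, 0.589 and 0.20% in PBS and for 17.3, 12.5 and 13.4% in the libraries labelled pIpC. Ccnd1 accounted for 0.564, 0.448 and 0.399% against 5.09, 2.88 and 4.0%. Ccnd3 therefore remained the main D-type cyclin in all 6 libraries, with Ccnd2 next in the libraries labelled pIpC. For each share the groups did not overlap, and the two-sided exact permutation test gave p = 0.1, the smallest that 3 against 3 libraries allow (adjusted p = 0.125 over the 10 within-library quantities compared). The sizes depended on the length used: the difference in the Ccnd1 share was 3.52 percentage points per kilobase of merged exons, 2.11 per kilobase of longest transcript and 1.91 without division by length.

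Of the kinases, Cdk6 was lower in the libraries labelled pIpC and Cdk4 was not called. Cdk6 (ENSMUSG00000040274, chr5:3341485-3531008, plus strand), the CDK of immature blood cells and of MLL-rearranged leukemia, was measured at 22130, 20758 and 10283 normalized counts in PBS and at 6414, 7294 and 6686 in the libraries labelled pIpC. PBS replicate 3 lay between the other PBS libraries and those labelled pIpC, and the groups did not overlap. Cdk6 was 2.61-fold lower in the libraries labelled pIpC (17724 ± 6480 against 6798 ± 451, SD, n = 3), with a log2 fold change of -1.31 (SE 0.30, 95% interval -2.02 to -0.59, limma adjusted p = 0.0144). Cdk6 is among the long transcripts (11525 bases), and its level in PBS replicate 3 was 1.06 lower on the log2 scale than in the other PBS libraries. With PBS replicate 1, 2 or 3 left out the log2 fold change was -1.11, -1.15 and -1.66, and the highest adjusted p over the 19 alternatives was 0.0622, without pIpC replicate 1 (limma). After each library's trend with transcript length was removed, a step chosen after seeing the data, it was -1.77.

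Cdk4 (ENSMUSG00000006728, chr10:127063534-127067920, plus strand), the CDK that most proliferating cells use with D-type cyclins, was measured at 4096, 4371 and 7295 normalized counts in PBS and at 3918, 3535 and 3659 in the libraries labelled pIpC. The gap between the groups was narrow, and PBS replicate 3 stood far above every other library. With all 6 libraries the log2 fold change of -0.46 (SE 0.23, 95% interval -1.0 to 0.09) did not pass (limma adjusted p = 0.167). The call turned on single PBS libraries. Without PBS replicate 3 the log2 fold change was -0.19 and passed (limma adjusted p = 0.0395), without PBS replicate 1 it was -0.61 and passed (0.0999), and with quantile normalization it was -0.56 and passed (0.0525). Over the 19 alternatives the adjusted p for Cdk4 ranged from 0.0395 to 0.349, and the value stayed below 0 in each. Cdk4 shares 641 bases (19.7% of its merged exons) with Tspan31 on the other strand, which was measured at 301 to 367 normalized counts in PBS and 437 to 642 in the libraries labelled pIpC.

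The ratio of Cdk6 to Cdk4 within a library, per kilobase, did not separate the groups. On the log2 scale it was 0.33, 0.14 and -1.61 in PBS and -1.40, -1.06 and -1.24 in the libraries labelled pIpC. PBS replicate 3 had the lowest ratio of all 6 libraries, and the mean difference of -0.85 had p = 0.4 in the two-sided exact permutation test (adjusted p = 0.444). The difference was -1.47 without PBS replicate 3, -0.50 without PBS replicate 1 and -0.59 without PBS replicate 2.

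The promoters of the kinases and of Cdkn1a are shown with E boxes and paired CATG cores marked, which the products of Myc and Trp53 respectively are known to bind. RNA of Myc and Trp53 was lower in the libraries labelled pIpC, and any part of it in the levels of these genes was not tested. Myc was at 3131 ± 879 normalized counts in PBS and 1744 ± 83.5 in the libraries labelled pIpC (log2 fold change -0.81, SE 0.20, limma adjusted p = 0.0193). Trp53 was at 3320 ± 347 and 2472 ± 168 (log2 fold change -0.42, SE 0.13, limma adjusted p = 0.042). The sequences are the 250 bases before a start of each gene in RefSeq on GRCm38.p6, 5′ to 3′, with CACGTG in capitals for the kinases and a pair of CATG cores with 6 bases between them, the known core of a p53 site, in capitals for Cdkn1a, searched on both strands. RefSeq promoter entries were matched for 8 of the 10 genes (12 starts), with Ccnd1 and Ccnd2 named only.
Cdk4, chr10:127063285-127063534, plus strand: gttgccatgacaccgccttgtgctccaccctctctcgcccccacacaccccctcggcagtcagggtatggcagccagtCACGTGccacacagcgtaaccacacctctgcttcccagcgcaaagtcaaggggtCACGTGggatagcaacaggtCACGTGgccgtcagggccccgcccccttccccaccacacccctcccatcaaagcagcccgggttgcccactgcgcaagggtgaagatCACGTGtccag
Cdk6, chr5:3343643-3343892, plus strand: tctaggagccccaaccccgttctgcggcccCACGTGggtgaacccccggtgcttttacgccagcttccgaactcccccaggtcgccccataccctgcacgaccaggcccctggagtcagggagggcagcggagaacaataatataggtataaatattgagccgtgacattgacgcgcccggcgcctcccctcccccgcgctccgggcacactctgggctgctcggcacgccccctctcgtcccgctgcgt
Cdkn1a, chr17:29090729-29090978, plus strand: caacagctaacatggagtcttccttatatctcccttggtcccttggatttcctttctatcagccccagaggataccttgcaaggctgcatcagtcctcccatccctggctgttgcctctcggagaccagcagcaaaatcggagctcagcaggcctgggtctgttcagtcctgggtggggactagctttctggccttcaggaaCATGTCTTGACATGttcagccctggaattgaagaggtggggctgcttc
The Cdk4 promoter holds 4 copies of CACGTG, which begin at positions -172, -118, -98 and -11 relative to the gene start. Among 32851 mouse promoters of the same length, 6.02% held at least 1 copy and 7 promoters (0.0213%) held at least 4. The Cdk6 promoter holds 1 copy. The first Cdkn1a start holds 1 such pair of CATG cores, a pattern found in 0.490% of the promoters. No such pair lies before the second Cdkn1a start (chr17:29093519-29093768). A match is a description of letters, and binding was not measured in these libraries.
The 3 INK4 genes and Cdkn1b carry no match to CACGTG or to the paired CATG cores in these windows. The GC box GGGCGG, present in 32.7% of the promoters, occurs 2 times before the first start of Cdkn2a, 3 times before the first start of Cdkn2c, 3 times before Cdkn2d and 1 time before Cdkn1b, and not before the second starts of Cdkn2a and Cdkn2c. The letters TTTNGCGC, an E2F motif found in 1.13% of the promoters, occur once before the second start of Cdkn2a.

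The CIP/KIP inhibitors moved in opposite directions. Cdkn1a (ENSMUSG00000023067, chr17:29090976-29100727, plus strand) encodes p21, a target of p53, and was measured at 577, 614 and 602 normalized counts in PBS and at 163, 197 and 148 in the libraries labelled pIpC. The values were tight in both groups, PBS replicate 3 included, and wide apart. Cdkn1a was 3.53-fold lower in the libraries labelled pIpC (598 ± 19.0 against 169 ± 25.3, SD, n = 3), with a log2 fold change of -1.82 (SE 0.16, 95% interval -2.21 to -1.44, limma adjusted p = 0.000234).

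Cdkn1b (ENSMUSG00000003031, chr6:134920401-134925513, plus strand) encodes p27, which holds cells in quiescence, and was measured at 1513, 1344 and 883 normalized counts in PBS and at 2868, 3009 and 2791 in the libraries labelled pIpC. Every library labelled pIpC lay above every PBS library, and PBS replicate 3 was the lowest of all. The difference was 2.32-fold (1247 ± 326 against 2889 ± 111, SD, n = 3), with a log2 fold change of 1.25 (SE 0.21, 95% interval 0.75 to 1.75, limma adjusted p = 0.00387). Within libraries, the Cdkn1a to Cdkn1b ratio per kilobase was 0.630 in PBS and 0.0746 in the libraries labelled pIpC as geometric means. On the log2 scale the 6 values were -1.03, -0.77 and -0.19 against -3.78, -3.57 and -3.88, with p = 0.1 in the exact permutation test, the smallest possible. The other CIP/KIP gene, Cdkn1c, which encodes p57 and marks quiescent stem cells, was at 75.2 ± 21.0 normalized counts in PBS and 9.0 ± 7.93 in the libraries labelled pIpC (log2 fold change -3.20, SE 0.60, limma adjusted p = 0.0064).

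Among the INK4 genes, Cdkn2c and Cdkn2d were higher and Cdkn2a was lower. Cdkn2c (ENSMUSG00000028551, chr4:109660876-109667189, minus strand) encodes p18 and was measured at 534, 548 and 638 normalized counts in PBS and at 2016, 2001 and 2175 in the libraries labelled pIpC. It had the smallest standard error of the 10 genes and no library of either group came near the other. The difference was 3.60-fold (573 ± 56.7 against 2064 ± 96.1, SD, n = 3), with a log2 fold change of 1.85 (SE 0.13, 95% interval 1.55 to 2.15, limma adjusted p = 8.26e-05).

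Cdkn2d (ENSMUSG00000096472, chr9:21288410-21291407, minus strand) encodes p19INK4d and was measured at 819, 931 and 1772 normalized counts in PBS and at 2318, 2421 and 2281 in the libraries labelled pIpC. PBS replicate 3 was close to the libraries labelled pIpC and 1.02 above the other PBS libraries on the log2 scale, and the transcript is short (1423 bases). The difference was 1.99-fold (1174 ± 521 against 2340 ± 72.8, SD, n = 3), with a log2 fold change of 1.08 (SE 0.28, 95% interval 0.40 to 1.76, limma adjusted p = 0.0248). Without PBS replicate 3 it was 1.42, and without PBS replicate 1 it was 0.86.

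Cdkn2a (ENSMUSG00000044303, chr4:89274471-89294653, minus strand) encodes p16INK4a and, from another first exon and reading frame, p19ARF, and the gene count does not separate them. It was measured at 93.4, 131 and 272 normalized counts in PBS and at 16, 4.09 and 18.4 in the libraries labelled pIpC, the latter from 16, 4 and 19 reads. The groups did not overlap, although the values differed several-fold within each. PBS replicate 3 was 1.29 above the other PBS libraries on the log2 scale, and the transcript is short (895 bases). Cdkn2a was 12.9-fold lower in the libraries labelled pIpC (165 ± 94.0 against 12.8 ± 7.65, SD, n = 3), with a log2 fold change of -3.66 (SE 0.63, 95% interval -5.15 to -2.17, limma adjusted p = 0.00425). Without PBS replicate 3 the log2 fold change of Cdkn2a was -3.23, and without PBS replicate 1 it was -4.00. The neighbouring gene Cdkn2b, which encodes p15, had few reads in all libraries. Its mean was under 10 normalized counts, so it was not tested. It had 6, 9 and 8 reads in PBS. The libraries labelled pIpC held 1, 0 and 1 reads, under the floor of 3 reads.

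The share of each gene among the 3 INK4 genes, per kilobase, showed which of them carried the pool. Cdkn2d held 65.1, 65.2 and 70.6% in PBS and 65.8, 67.3 and 63.7% in the libraries labelled pIpC, so the ranges overlapped (difference of -1.38 percentage points, exact permutation p = 0.7). Cdkn2c held 24.9, 22.5 and 14.9% against 33.6, 32.6 and 35.6%. Cdkn2a held 9.98, 12.3 and 14.5% against 0.609, 0.152 and 0.689%. The Cdkn2c and Cdkn2a shares did not overlap between groups, with p = 0.1 for each in the exact permutation test, the smallest possible. The difference in the Cdkn2d share was 0.20 percentage points per kilobase of longest transcript, -7.21 without division by length and 0.41 without PBS replicate 3, so neither its size nor its sign is settled.

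**Figure D2:**
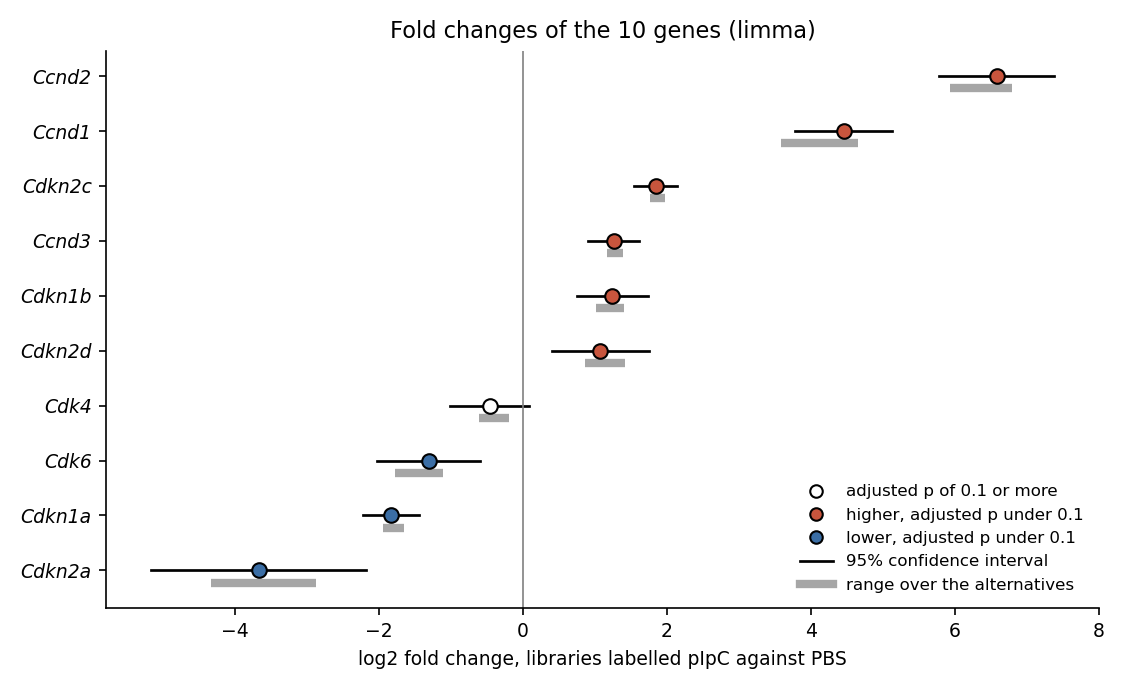
Log2 fold change of each of the 10 G1 control genes, libraries labelled pIpC against PBS (horizontal axis), with the 95% interval from limma as a line. Intervals lie above 0 for Ccnd1, Ccnd2, Ccnd3, Cdkn1b, Cdkn2c and Cdkn2d, below 0 for Cdk6, Cdkn1a and Cdkn2a, and cross 0 for Cdk4.

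Balances between the classes were also compared within libraries. The D-type cyclins summed to 0.140 of the summed CDK4 and CDK6 genes in PBS and to 0.726 in the libraries labelled pIpC, as geometric means of levels per kilobase. On the log2 scale the ratio was -2.99, -2.88 and -2.63 against -0.51, -0.42 and -0.46, and PBS replicate 3 stayed near the other PBS libraries. The 5 inhibitors summed to 0.461 of the cyclins and kinases in PBS and to 1.05 in the libraries labelled pIpC. Their log2 ratio was -1.31, -1.22 and -0.82 against 0.04, 0.10 and 0.08. Both ratios separated the groups without overlap, with p = 0.1 in the two-sided exact permutation test, the smallest possible (adjusted p = 0.125). The ratio of cyclins to kinases, the Cdkn1a to Cdkn1b ratio and the INK4 shares were chosen after the values were seen.

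**Figure D3:**
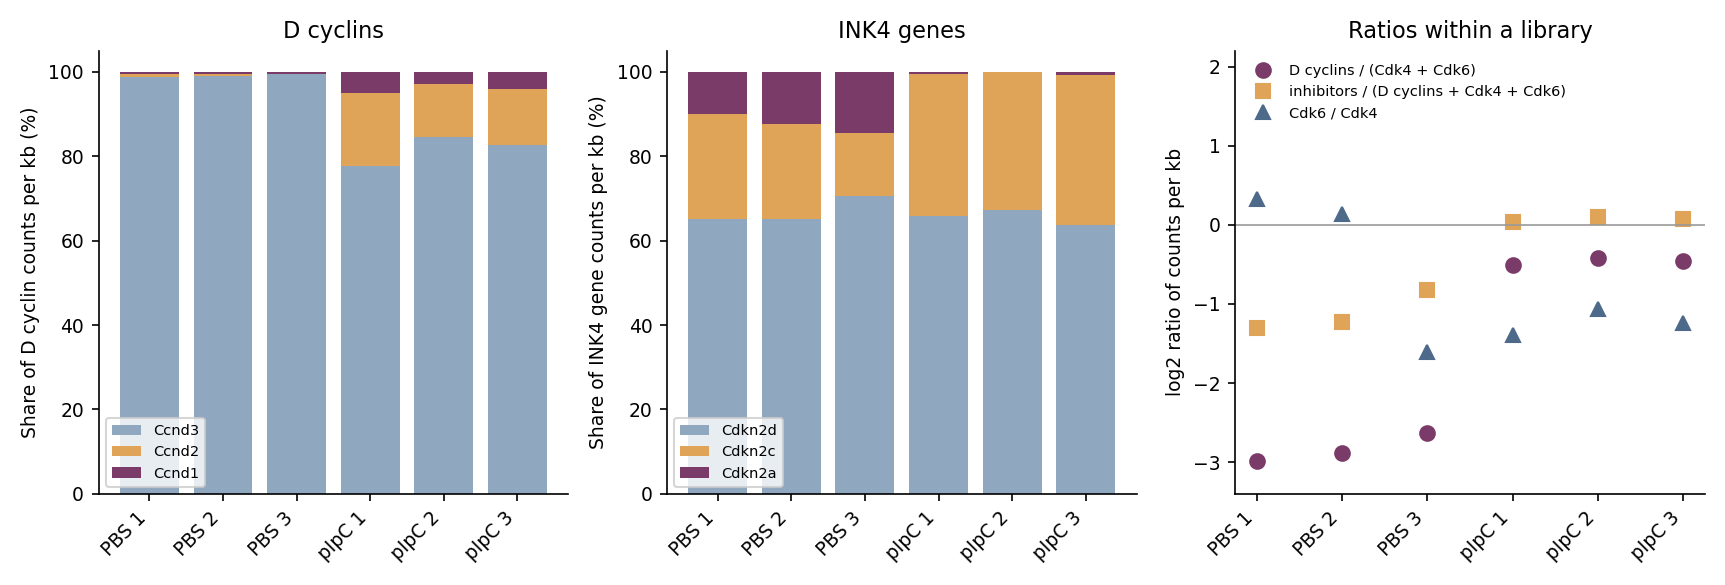
Shares of the D-type cyclins and of the INK4 genes as stacked bars, 1 per library, and log2 ratios as 1 point per library. All are computed from levels per kilobase of merged exons, and no group mean is drawn. The D-type cyclin shares and the ratio of inhibitors to cyclins and kinases separate the groups, while the Cdk6 to Cdk4 ratio of PBS replicate 3 lies below those of the libraries labelled pIpC.

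The order of the genes by level per kilobase differed between the groups. In PBS the order ran from Cdk4 (1617 ± 546 normalized counts per kilobase, SD, n = 3) through Cdk6 (1267 ± 463), Cdkn2d (746 ± 331), Ccnd3 (404 ± 65.7), Cdkn1b (274 ± 71.7), Cdkn2c (213 ± 21.1), Cdkn1a (168 ± 5.35) and Cdkn2a (141 ± 80.2) to Ccnd1 (1.89 ± 0.154) and Ccnd2 (1.75 ± 0.691). Several neighbours overlapped in their ranges, namely Cdk4 with Cdk6, Cdk6 with Cdkn2d, Cdkn1b with Cdkn2c, Cdkn1a with Cdkn2a, and Ccnd1 with Ccnd2. In the libraries labelled pIpC, Cdkn2d stood first (1487 ± 46.2), followed by Cdk4 (1140 ± 60.2), Ccnd3 (964 ± 53.1), Cdkn2c (768 ± 35.8), Cdkn1b (635 ± 24.3), Cdk6 (486 ± 32.2) and Ccnd2 (169 ± 28.6). Cdkn1a (47.6 ± 7.11) and Ccnd1 (47.0 ± 12.5) overlapped, and Cdkn2a (10.9 ± 6.53) was last. The order depended on the length used. Per kilobase of the longest transcript, chosen after seeing the data, Cdk4 (2559 ± 864) and Cdk6 (1538 ± 562) again had the highest PBS means, and Ccnd3 (2192 ± 121) stood before Cdk4 (1804 ± 95.3) and Cdkn2d (1644 ± 51.1) in the libraries labelled pIpC. In PBS replicate 3, Cdkn2d (1126 per kilobase of merged exons) was above Cdk6 (735).

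Genes with the most similar profile over the 6 libraries were found by the root mean square distance between log2 values centred on each gene's mean. The nearest to Ccnd2, which rose most, were Bhlhb9 (distance 0.19), Igkv6-23 (0.27) and Mmp25 (0.27). Igkv6-23 is an immunoglobulin light chain segment, a product of B cells, and Mmp25 is a metalloproteinase of neutrophils. The nearest to Cdkn2a, which fell most, were Gm44096 (0.31), Nme9 (0.35) and Mir27a (0.44). In PBS, Bhlhb9 and Igkv6-23 had only a few counts (2.26 to 5.06 and 0 to 1.01 normalized counts), and Gm44096, Nme9 and Mir27a had 0 to 3.87 in the libraries labelled pIpC, so these profiles rest on few reads.

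Downstream of the cyclin D kinases, the RB and E2F genes were mixed. Of 13 tested, 7 were higher, 2 were lower and 4 were not called (median log2 fold change 0.50, and 0.30 without PBS replicate 3). Over all genes tested, 45.3% were called, 25.0% as higher and 20.4% as lower. E2f2, an activating E2F, went from 783 ± 29.5 to 4330 ± 450 normalized counts (log2 fold change 2.46, SE 0.12, limma adjusted p = 3.11e-05). E2f6, a repressive E2F, had the lowest value (1307 ± 6.22 against 745 ± 46.9, log2 fold change -0.81, limma adjusted p = 0.00172). E2f1, another activating E2F, was also lower (-0.62, limma adjusted p = 0.0043). Rb1, the main substrate of the kinases, was higher at the threshold used (0.50, SE 0.19, limma adjusted p = 0.0815).

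Of 8 E and A cyclins, Cdk2 and CDK-activating genes, 5 were higher, 1 was lower and 2 were not called (median 0.48). Over all genes tested, 25.0% were called as higher and 20.4% as lower. Ccne1, the cyclin that follows the D-type cyclins, had a log2 fold change of 0.87 (limma adjusted p = 0.028), and its partner Cdk2 had 0.40 (0.0287). Cdc25a, a phosphatase that activates CDK2, was highest (1.25, limma adjusted p = 0.000667), and Mnat1, an assembly factor of the CDK-activating kinase, was lowest (-0.97, limma adjusted p = 0.00345). Of 11 ubiquitin ligase and turnover genes, 4 were higher and 7 were not called, against 45.3% called over all genes tested. Their median was 0.17, and 0.30 without PBS replicate 1. Skp2, which targets p27 for degradation, was the highest of them (0.62, SE 0.13, limma adjusted p = 0.011), and Skp1, the adaptor of its ligase, had the lowest value and was not called (-0.33, limma adjusted p = 0.369).

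Of 20 S phase genes that E2F factors drive, 2 were higher, 5 were lower and 13 were not called, against 45.3% called over all genes tested (median -0.26, and -0.13 without PBS replicate 3). Rrm2, a ribonucleotide reductase subunit, had the highest value (1.29, SE 0.12, limma adjusted p = 0.000286), and Mcm6, a subunit of the replicative helicase, the lowest (-0.61, SE 0.18, limma adjusted p = 0.0414). The mitotic genes were higher in 6 of 8, and 2 were not called, against 25.0% called as higher over all genes tested. Their median was 0.55. They ran from Mki67, a proliferation marker (0.98, limma adjusted p = 0.0391), down to Cdk1, the mitotic kinase (0.34, limma adjusted p = 0.119). Of 12 upstream regulators, 2 were higher, 3 were lower and 7 were not called, against 45.3% called over all genes tested (median -0.14). Foxo3, a forkhead factor known to activate Cdkn1b, was the highest (1.01, SE 0.16, limma adjusted p = 0.00315), and Myc, described above, was the lowest.

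**Figure D4:**
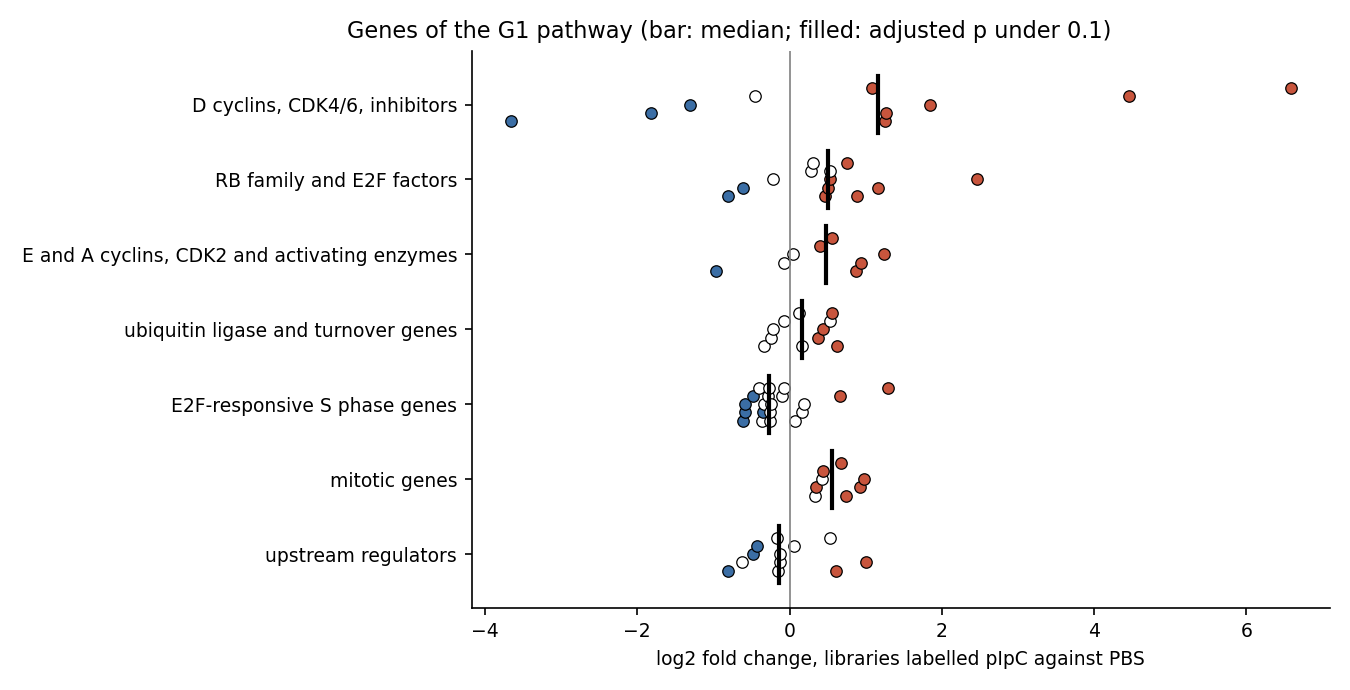
Log2 fold change (horizontal axis) of every tested gene in the G1 control genes and in 6 further lists of the pathway, with 1 point per gene, filled where the limma adjusted p was under 0.1 and a black bar at the list median. The G1 control genes spread from -3.66 to 6.58, wider than the other lists drawn, whose genes lie between -0.97 and 2.46. The list of other CIP/KIP and INK4 inhibitors is not drawn, and its tested gene Cdkn1c was at -3.20.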

How the data were processed

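The 6 libraries, 3 PBS and 3 pIpC, were grouped by their titles. The deposited table holds 1 signal per gene and library, gene counts that the authors divided by size factors. The submitters' processing notes name HISAT2 2.2.1, SAMtools, Subread, featureCounts, edgeR and GRCm38, whereas the paper's methods name other tools and stranded, c-Kit+ cells, and which of these made the table is not given in the sources used here. Each column was whole multiples of 1 step (tolerance 0.05 reads, 100% of values), so whole reads were recovered, and depth is given in the report. Gene positions came from GENCODE M21.

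Values were tested on log2(normalized count + 1) with limma 3.58.1 in R 4.3.3 (trend, no replicate block), over the 15020 genes with a mean of at least 10, with Benjamini-Hochberg adjustment over all of them. The script was tested on simulated data. Ratios within libraries used exact permutation tests. Alternatives were other pseudocounts, filters, scalings and thresholds, each library left out, a replicate block, no trend, and edgeR 4.0.16 and DESeq2 1.42.0 on the recovered reads, which called 6901 and 7451 genes against 6808. Removal of the transcript length trend was added after seeing the data.

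The genes and lists were chosen with earlier results of these data known. Named were all 10 genes, the highest and lowest gene of each list, fixed partners of the members (Rb1, E2f1, Ccne1, Cdk2, Skp2, Myc, Trp53, Cdkn2b, Cdkn1c), the 3 nearest profiles to the genes that rose and fell most, and Brd9. Genes that overlap them or mark cell types are named where a value turns on them.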

Additional observations from a re-analysis of the deposited data

How the results depend on the processing

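The 9 called G1 control genes kept their direction and call, 6 higher and 3 lower, under all 19 alternatives, the transcript length correction chosen after seeing the data included. No called value changed sign, and among the differences within libraries only the Cdkn2d share did (-1.38 against 0.20 per kilobase of longest transcript and 0.41 without PBS replicate 3). The replicate numbers did not pair the libraries (correlations of same-numbered deviations -0.12, 0.14 and 0.041), and with a replicate block 6095 genes were called and the calls of the 10 genes did not change. Cdk4 was called in 3 alternatives, with quantile normalization (-0.56) and with a PBS library left out, and ranged from -0.61 to -0.19 over the libraries left out. Between 4650 (without pIpC replicate 2) and 9783 genes (without PBS replicate 3) were called. Quantile normalization moved the median of all genes from 0.015 to -0.12, and 44.3% of its called genes were higher against 55.1%. The cause was not tested.

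With quantile normalization the list medians were -4.09 for the other inhibitors (Cdkn1c alone), 0.38 for the E and A cyclins, 0.098 for the ubiquitin genes, -0.23 for the upstream regulators and 0.42 for the mitotic genes. With a pseudocount of 10, Cdkn1c was at -2.21. With a library left out, the medians ranged from 0.14 to 0.30 for the ubiquitin genes and from -0.30 to -0.13 for the S phase genes. Per kilobase of longest transcript, the differences were 2.11, 9.79 and -11.9 percentage points in the Ccnd1, Ccnd2 and Ccnd3 shares, -13.7 in the Cdkn2a share, 0.89 for the inhibitor ratio and 2.22 for the ratio of cyclins to kinases. Without division by length they were 1.91 for Ccnd1, -7.94 for Cdkn2a, -7.21 for Cdkn2d and 2.64 for the ratio of cyclins to kinases. Depth limits Ccnd1, Ccnd2 and Cdkn2a, which had few reads in 1 of the groups, and Cdkn2b, which had few in both.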
